A study of Mus musculus with 13 samples.

Results

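The 10 genes described here encode the spindle assembly checkpoint and the chromosomal passenger complex. They were taken by name: the checkpoint kinases and adaptors Bub1, Bub1b, Bub3, Mad1l1, Mad2l1 and Ttk, and the passenger genes Aurkb, Aurkc, Incenp and Cdca8. All 10 were found among the 22442 genes of the ribosome profiling (Ribo-seq) tables. Ribo-seq counts ribosome-protected fragments (RPFs), the short stretches of mRNA under ribosomes that survive RNase I. It had been done on small pools of mouse oocytes of the C57BL/6J background, at the germinal vesicle (GV) stage, when the oocyte is arrested in prophase I, and at metaphase II (MII), after maturation. GV oocytes came from ovaries of juvenile females given PMSG, and MII oocytes from the oviducts of superovulated juvenile females given PMSG and hCG. The oocytes were exposed to cycloheximide before lysis. There were 3 WT GV, 3 Nat10-ZcKO GV, 2 WT MII and 3 Nat10-ZcKO MII libraries. Nat10-ZcKO females carry a floxed Nat10 allele beside a null allele. Zp3-Cre deletes the floxed allele only in oocytes and only from the primary follicle on. The surrounding granulosa cells thus keep Nat10 from the floxed allele alone. Nat10 encodes the enzyme that makes N4-acetylcytidine (ac4C) in RNA. The series' design text also mentions tamoxifen for the Ribo-seq animals, which the methods of the study do not give for this Cre. For WT GV oocytes, acRIP-seq added 1 library of mRNA fragments pulled down with an anti-ac4C antibody and 1 with anti-IgG.

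The spindle checkpoint holds a cell before anaphase until every kinetochore is attached to microtubules. TTK (MPS1) starts the signal at the kinetochore, BUB1 and BUB3 dock there, MAD1 recruits MAD2, and MAD2 with BUBR1 (the product of Bub1b) and BUB3 binds CDC20, so that the anaphase-promoting complex stays off. The chromosomal passenger complex joins an Aurora kinase to INCENP, borealin (Cdca8) and survivin (Birc5), and releases wrong attachments, and in oocytes Aurora C works beside Aurora B. A GV oocyte makes almost no new mRNA once it has grown, so during maturation stored mRNAs are recruited to or released from ribosomes, and one well-known route is cytoplasmic polyadenylation, through the cytoplasmic polyadenylation element (CPE) near the end of the 3' UTR.

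The depth limits what can be said of these genes. The Ribo-seq libraries held 42360 to 279464 RPF counts on genes, except WT MII replicate 2 with 4815, where a count of 0 allows a level of up to 623 counts per 1000000 counts of the library (CPM) with 3 counts taken as the limit. Such limits and all counting intervals cover counting error only. Of 14 oocyte markers, counts summed to 5.73 to 7.77% of the WT GV libraries and to 11.1% of Nat10-ZcKO GV replicate 3, but to 0.0142% and 1.54% of Nat10-ZcKO GV replicates 1 and 2. In Nat10-ZcKO GV replicate 1, 11 of the 14 markers were at 0, among them Zp1, Zp2, Gdf9 and Bmp15, so that library does not show its labelled cell type. Of 10 adipocyte markers, the summed level was 1.5% and 0.302% in those 2 libraries and 0.0170 to 0.0250% in the other GV libraries. Of 15 granulosa or cumulus markers it was 1.13% and 0.342% there and 0.280 to 0.520% in the others. In the MII libraries the oocyte markers made up 1.14 to 1.36%, save WT MII replicate 2 with 0.0208% and 13 of 14 markers at 0. Granulosa or cumulus markers made up 0.212 to 0.535% and adipocyte markers 0.0125 to 0.0239% of the other 4 MII libraries. The targeted gene, Nat10, had 3 to 11 counts in WT GV, 1 to 5 in Nat10-ZcKO GV, 1 and 5 in WT MII and 2 to 6 in Nat10-ZcKO MII libraries, too few to check the labels, and these counts cover the whole coding sequence (CDS). Results are given with all libraries and, as a comparison chosen after the data were seen, in the 8 libraries left without Nat10-ZcKO GV replicates 1 and 2 and WT MII replicate 2. That leaves 3 WT and 1 Nat10-ZcKO library at GV, and 1 WT and 3 Nat10-ZcKO libraries at MII.

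Of all RPF counts, the 10 genes together took 0.0749, 0.0980 and 0.0936% in the WT GV libraries (values of single libraries are given from replicate 1 on), and for Nat10-ZcKO GV the shares were 0.0803, 0.162 and 0.0823%. At MII the shares were 0.640% for WT replicate 1, 0.0623% for WT replicate 2, which is 3 counts, and 0.770, 0.523 and 0.716% for Nat10-ZcKO. Setting that library aside, every MII library lay above every GV library. Most of this difference was Bub1b. Its share of the 10 genes' counts was 17.5 to 30% in the 6 GV libraries and 82.4 to 88.7% in the 4 deep MII libraries. Without Bub1b the other 9 genes took 0.0682% ± 0.0094 of counts at GV and 0.0970% ± 0.0117 at MII (SD, n = 4 libraries each of the 8). In bulk pools such as these, fewer oocytes and less RNA per oocyte cannot be told apart, and RPF counts alone do not separate the amount of an mRNA from how heavily it is translated.

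**Figure D1:**
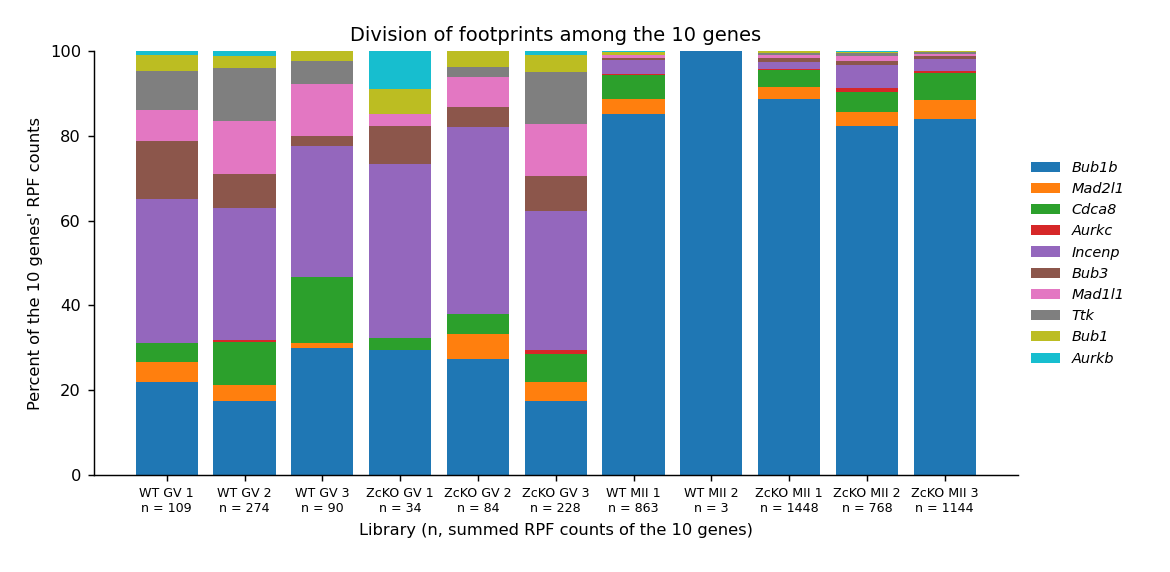
Stacked bars give the percent of the 10 genes' RPF counts (y axis) that each gene took in each of the 11 Ribo-seq libraries (x axis, with the summed counts). Bub1b fills 82.4 to 88.7% of the deep MII bars and at most 30% of the GV bars, where Incenp is the largest part, and WT MII 2 rests on 3 counts.

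The ends of the 3' UTRs are shown first, because the CPE is the sequence most often linked to translation in maturing oocytes and the footprints of some of the 10 genes rose at MII. The letters TTTTAT and TTTTAAT were searched on the mRNA strand alone of the annotated 3' UTRs (GENCODE M21 on GRCm38), and the match is a description of these letters only. The windows are 30 bases long, 5' to 3', from GRCm38, with the match in capitals.
Bub1b, chr2:118641553-118641582, + strand: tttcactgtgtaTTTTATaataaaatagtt
Mad2l1, chr6:66540962-66540991, + strand: tgtaataaagaactcttaTTTTAATgtttt
Aurkb, chr11:69051616-69051645, + strand: tgaagaacaacaTTTTATaataaagtctta
Aurkc, chr7:7003036-7003065, + strand: gcttgttttctcTTTTATgaagtgatgtta

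Matches were counted in 1 transcript per gene, chosen by the annotation's principal tag first and by the longest CDS next. There Bub1b had a 3' UTR of 272 bases with 2 matches, both in its last 100 bases. The last of them stopped 21 bases before the end. In Bub1b and in Aurkb the match is followed directly by a polyadenylation signal, AATAAA, with no shared base. Mad2l1 had 12 matches in a 3' UTR of 6802 bases, none in the last 100. The window shown for it is from another annotated transcript with a shorter 3' UTR of 1048 bases, where the match ends 5 bases before the end. Aurkb and Aurkc had 1 match each, 31 and 38 bases before the end. Ttk had 2 matches in 318 bases, the last of them 99 bases before the end and outside the window counted. Bub1, Bub3, Mad1l1, Incenp and Cdca8 had none anywhere in the 3' UTR of the chosen transcript. For these 5 genes, other transcripts were searched in their last 100 bases only. So 3 of 10 genes held the letters in the last 100 bases of the chosen transcript, against 17.9% of 19304 protein-coding genes. In at least 1 coding transcript 4 of 10 did, against 22.4%. These shares are near the background, and Cdca8, which had more footprints at MII, had no match in the chosen transcript.

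Bub1b had the largest change by stage of the 10. The gene lies at chr2:118598211-118641591 on the + strand of GRCm38 and encodes BUBR1, the checkpoint protein that with MAD2 and BUB3 holds CDC20, and that in oocytes is also known for timing meiosis I and steadying kinetochore attachments. Its GV counts were 24, 48 and 27 for WT and 10, 23 and 40 for Nat10-ZcKO. Its MII counts were 735 and 3 for WT and 1284, 633 and 962 for Nat10-ZcKO. Scaled to library size, this was 144 to 445 CPM in the 6 GV libraries and 4314 to 6831 CPM in the 4 deep MII libraries, a range far above any GV library. WT MII replicate 2, at 623 CPM from 3 counts, lay between these ranges. In the 8 libraries the mean rose from 190 ± 61.4 CPM at GV to 5655 ± 1058 CPM at MII (SD, n = 4 each), 29.7-fold. Fitted with genotype as a term, the log2 fold change was 4.85 with a standard error of 0.32 (edgeR quasi-likelihood test, Benjamini-Hochberg adjusted p = 1.9e-10), and 13 of the 2185 genes tested had a higher one. On a per-length scale (TPM, counts per CDS base, scaled to the same sum in every library), its mean level was 77.5 at GV and 2328 at MII, which is rank 41 of 22359 genes at MII and rank 1593 at GV.

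Within the WT libraries alone, the fit of all 5 gave Bub1b a log2 fold change of 4.26 with a standard error of 2.0, and the difference was not called (edgeR, adjusted p = 0.20). WT MII replicate 2 decides this value. Without it the change was 4.85 with a standard error of 0.26 (adjusted p = 7.3e-10), and of 7 genes tested Bub1b, Mad2l1 and Cdca8 were called higher and Ttk lower, against 20.9% and 23.9% of 3264 genes. With that library as the only MII sample the sign turned, to a log2 fold change of -1.62 (adjusted p = 0.0344), and 5 of 6 genes tested were called lower, as were 72.5% of 2455 genes. By library size alone, Bub1b in WT MII replicate 2 was at 623 CPM, above the WT GV libraries at 165 to 281 CPM. The median log2 fold change of all genes in that fit was -6.85, so the sign for Bub1b depended on the scaling. A lone library in a group is assumed to vary like the others in these fits. Within the 6 Nat10-ZcKO libraries Bub1b rose by 4.24 on the log2 scale with a standard error of 1.04 (adjusted p = 0.0231), and by 5.0 with a standard error of 0.78 without the pair of GV libraries low in oocyte markers (adjusted p = 6.6e-09), where 3 of 7 genes tested were called higher, against 19% of 3741. The call in the 6 libraries was lost when either Nat10-ZcKO MII replicate 1, 2 or 3 was left out (adjusted p 0.0781 to 0.112) and with all 11 libraries in one fit (adjusted p = 0.081). In the 8-library fit it held with each library left out in turn, at log2 fold changes of 4.70 to 5.11.

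Mad2l1, at chr6:66535390-66547220 on the + strand, encodes MAD2, the protein that closes around CDC20. Its GV counts were 5, 10 and 1 for WT and 0, 5 and 10 for Nat10-ZcKO, and its MII counts 32 and 0 for WT and 43, 25 and 50 for Nat10-ZcKO. No GV library passed 96.7 CPM, and the deep MII libraries lay at 170 to 313 CPM. The mean of the 8 libraries was 29.2 ± 12.5 CPM at GV and 237 ± 58.6 CPM at MII (SD, n = 4 each), and the fitted rise was 2.66 on the log2 scale with a standard error of 0.45 (edgeR, adjusted p = 2.7e-05). Within Nat10-ZcKO oocytes it was 2.15 with a standard error of 0.85 and not called in all 6 libraries (adjusted p = 0.0908). Of the 28-base pieces of its CDS, 32% also occur elsewhere in the genome, so the counting could have dropped or split some of its fragments.

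**Figure D2:**
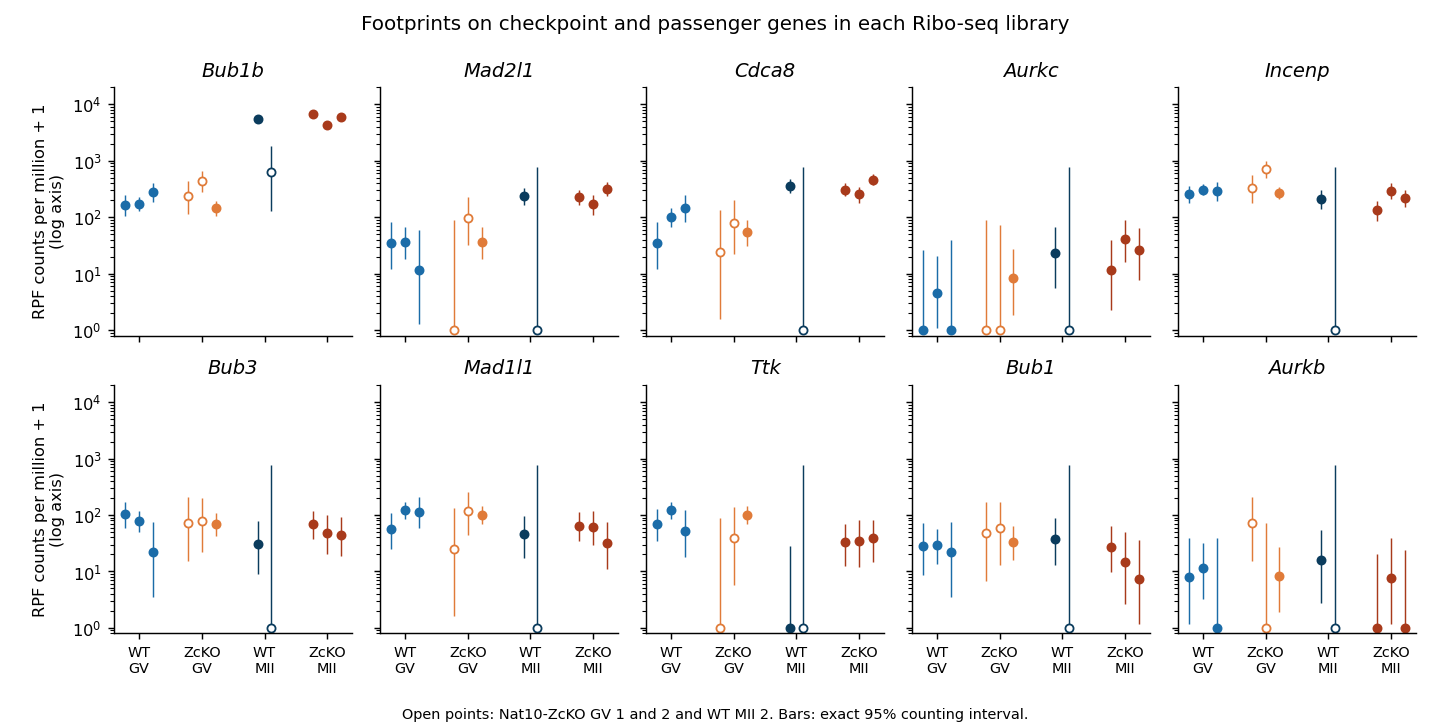
Each point is 1 Ribo-seq library, with RPF CPM plus 1 on a log y axis, the 4 groups on the x axis and bars for the exact 95% counting interval. Bub1b, Mad2l1 and Cdca8 stand higher in the 4 deep MII libraries than in any GV library of the 8, and the open points mark the 3 libraries low in oocyte markers, of which WT MII 2 is at 0 for 9 of the 10 genes.

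The other checkpoint genes were not called higher. Bub3 (chr7:131560222-131571895, + strand), the adaptor that both BUB1 and BUBR1 bind, had GV counts of 15, 22 and 2 for WT and 3, 4 and 19 for Nat10-ZcKO, and MII counts of 4 and 0 for WT and 13, 7 and 7 for Nat10-ZcKO. The ranges of the stages overlapped, and the log2 fold change in the 8 libraries was -0.92 with a 95% interval of -2.06 to 0.22 (edgeR, adjusted p = 0.138). For Bub3, 17.6% of the 28-base pieces of the CDS occur elsewhere in the genome. Bub1 (chr2:127801122-127831865, - strand), the kinase that marks centromeres for shugoshin, had 2 to 9 counts in each of the 6 GV libraries and 1 to 5 in the deep MII libraries. Its level was 27.4 ± 4.86 CPM at GV and 20.9 ± 13.7 CPM at MII (SD, n = 4 each), and it passed no filter on low counts. Tested without a filter, its log2 fold change had an interval of -1.95 to 1.18. The TPM levels of Bub1b and Bub3 were alike at GV, 77.5 and 79.2, and at MII they were 2328 and 56.8.

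Mad1l1 (chr5:140008689-140321552, - strand), whose product MAD1 carries MAD2 to unattached kinetochores, had GV counts of 8, 34 and 11 for WT and 1, 6 and 28 for Nat10-ZcKO, and MII counts of 6 and 0 for WT and 12, 9 and 5 for Nat10-ZcKO. The mean of the 8 libraries was 98 ± 29.9 CPM at GV and 50.2 ± 15.3 CPM at MII (SD, n = 4 each), and the highest MII library, at 63.8 CPM, was above the lowest of these GV libraries, at 55.0 CPM. It entered the 8-library fit only without the filter on low counts, where it was not called (log2 fold change -1.11, standard error 0.53, edgeR, adjusted p = 0.145).

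Ttk (chr9:83834689-83872389, + strand), the kinase that starts the checkpoint signal, was lower at MII in the 8 libraries, of which 3 of 4 at GV are WT and 3 of 4 at MII are Nat10-ZcKO. Its GV counts were 10, 34 and 5 for WT and 0, 2 and 28 for Nat10-ZcKO. At MII both WT libraries were at 0, and Nat10-ZcKO had 6, 5 and 6 counts. The 4 GV libraries of the 8 lay at 52.0 to 122 CPM, and the 4 MII libraries at 0 to 37.6 CPM, with no overlap. Its mean was 85.9 ± 31.4 CPM at GV and 25.9 ± 17.4 CPM at MII (SD, n = 4 each), 3.32-fold lower. Ttk missed the filter on low counts. Without the filter it fell by 2.33 on the log2 scale with a standard error of 0.64 (edgeR, adjusted p = 0.0027). Within Nat10-ZcKO oocytes it was not called. There the GV libraries, at 0 to 101 CPM, overlapped the MII libraries, at 31.9 to 37.6 CPM, and without the pair of GV libraries low in oocyte markers the log2 fold change was -1.84 with a standard error of 0.83 (edgeR, adjusted p = 0.0651). A count of 0 in WT MII replicate 1 allows up to 22.2 CPM with 3 counts taken as the limit, and up to 27.4 CPM by the exact 95% interval. The mean of the WT GV libraries, 80.8 CPM, was 3.63 times the limit of 22.2 CPM. The lowest of them, at 52.0 CPM on 5 counts, was 2.34 times that limit. The 3 Nat10-ZcKO MII libraries, at 31.9 to 37.6 CPM, lay above either limit, on 5 or 6 counts each. The difference of the genotype effect between the stages was not called for Ttk (edgeR, adjusted p = 0.707 over 3863 genes).

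Among the passenger genes, Cdca8 rose and Incenp was not called. Cdca8 (chr4:124918465-124939311, - strand) encodes borealin, which brings the complex to the inner centromere. Its GV counts were 5, 28 and 14 for WT and 1, 4 and 15 for Nat10-ZcKO, and its MII counts 48 and 0 for WT and 58, 37 and 74 for Nat10-ZcKO. GV libraries reached 146 CPM at most, and the deep MII libraries began at 252 CPM. The mean was 83.6 ± 49.7 CPM at GV and 345 ± 89.6 CPM at MII (SD, n = 4 each), and the fitted rise was 2.12 on the log2 scale with a standard error of 0.40 (edgeR, adjusted p = 1.0e-04). Within the 6 Nat10-ZcKO libraries it rose by 2.39 with a standard error of 0.74 (adjusted p = 0.0448), and this call was lost without Nat10-ZcKO GV replicate 2 (adjusted p = 0.0631) and without Nat10-ZcKO MII replicate 1, 2 or 3 (adjusted p 0.0843 to 0.162), with the replicate block (adjusted p = 0.0799) and with all 11 libraries in one fit (adjusted p = 0.0927).

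Incenp (chr19:9872296-9899551, - strand), the scaffold of the passenger complex, had the most GV footprints of the 10 genes. Its GV counts were 37, 86 and 28 for WT and 14, 37 and 75 for Nat10-ZcKO, and its MII counts 28 and 0 for WT and 25, 43 and 35 for Nat10-ZcKO. At 281 ± 23.4 CPM at GV and 213 ± 65.5 CPM at MII (SD, n = 4 each), the stages overlapped, and the log2 fold change was -0.58 with a 95% interval of -1.27 to 0.10 (edgeR, adjusted p = 0.118). Of the 3 passenger genes other than Incenp, Cdca8 alone had more than 6 counts in any library. Aurkb (chr11:69045647-69051664, + strand), the kinase of the complex in somatic cells, had 0 to 3 counts in every library. Summed over 4 libraries a stage, it had 6 counts at GV and 3 at MII, an MII to GV ratio of CPM of 0.634 with an exact 95% counting interval of 0.103 to 2.97. A difference in Aurkb was not detectable at this depth.

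Aurkc (chr7:6995300-7003091, + strand), the Aurora kinase of germ cells, had GV counts of 0, 1 and 0 for WT and 0, 0 and 2 for Nat10-ZcKO, and MII counts of 3 and 0 for WT and 2, 6 and 4 for Nat10-ZcKO. Summed over 4 libraries a stage this was 3 counts at GV and 15 at MII, a ratio of CPM of 6.34 with a counting interval of 1.79 to 34.2. With the spread between libraries taken into account it was not called (log2 fold change 2.24, standard error 1.19, edgeR without the filter on low counts, adjusted p = 0.210). The low counts of Aurkc are uncertain for another reason that can be measured. Of the 918 28-base pieces of its CDS, 90.7% also occur elsewhere in the genome, on chromosomes 4, 7 and 15, or in transcripts of other genes, and fragments that match several places are often left out of gene counts. No such piece of the CDS of Bub1, Bub1b, Ttk or Incenp occurs elsewhere, and for Aurkb, Cdca8 and Mad1l1 the share was 1.19 to 5.18%. None of the 10 shares a CDS base with the CDS of another annotated gene.

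In the order of the 10 genes per CDS length, Bub1b, Mad2l1, Cdca8 and Aurkc changed place relative to the others between the stages. Incenp, Bub3, Mad1l1, Ttk, Bub1 and Aurkb kept the same order among themselves. At GV the mean TPM levels in the 4 libraries ran from Incenp (136 ± 13) over Cdca8 (105 ± 64.4), Bub3 (79.2 ± 40.3), Bub1b (77.5 ± 26.4), Mad2l1 (60.3 ± 25.6), Mad1l1 (58.3 ± 18.2) and Ttk (44.0 ± 15.9) to Bub1 (11 ± 1.76), Aurkb (7.63 ± 5.57) and Aurkc (3.43 ± 4.35). Each pair of neighbours in that order overlapped in its values except Ttk and Bub1, whose libraries lay at 27.2 to 63.0 and 8.54 to 12.7. At MII the order began with Bub1b (2328 ± 396), Mad2l1 (501 ± 115) and Cdca8 (439 ± 107), and Bub1b lay above the other 9 genes in every one of the 4 libraries. Incenp followed at 106 ± 34.7 and stood apart from Cdca8, whose lowest library was at 334. Incenp and the rest, from Bub3 (56.8 ± 19.3) over Aurkc (32.8 ± 17.3), Mad1l1 (30.5 ± 9.63), Ttk (13.6 ± 9.13) and Bub1 (8.55 ± 5.53) to Aurkb (6.86 ± 8.84), overlapped from one neighbour to the next (SD, n = 4 throughout).

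The counts of called genes set these results against the background. In the 8 libraries 5 of the 10 genes passed the filter on low counts, which a gene can do through the stage where it is high, and 3 of them were called higher at MII and none lower. Of all 2185 genes tested, 33.9% were called higher, 36.3% lower and 70.2% either way, so a share of 3 in 5 is within what the background holds. Without the filter all 10 could be tested: 3 were called higher, Bub1b, Mad2l1 and Cdca8, and 1 lower, Ttk, against 8.16% and 9.23% of 13058 genes. These 13058 are all genes with at least 1 count in the 8 libraries, while 2185 passed the filter. Their shares are thus a low background for genes with many counts. The 4 MII libraries lay wholly above the 4 GV libraries for Bub1b, Mad2l1, Cdca8 and Aurkc, which 9.3% of genes did, and wholly under them for Ttk, which 11.2% of genes did. For Aurkc this rests on 0 to 2 GV and 2 to 6 MII counts a library. With 3 counts taken as the limit, its count of 0 in WT GV replicate 3 allows up to 31.2 CPM. That is above its lowest MII library, at 10.6 CPM, so a separation is not shown for Aurkc. The median log2 fold change of the 10 was -0.28, beside -0.30 over all genes tested. In the fit of the 6 Nat10-ZcKO libraries, 2 of the 5 genes tested were called higher, against 9.98% of 2225 genes, and in that of the 5 WT libraries 0 of 5, against 0.293% of 2045 genes either way. In the WT fit 458 genes had an unadjusted p under 0.05, and DESeq2 called 891 genes and 1 of the 10, Bub1b (adjusted p = 0.0043).

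**Figure D3:**
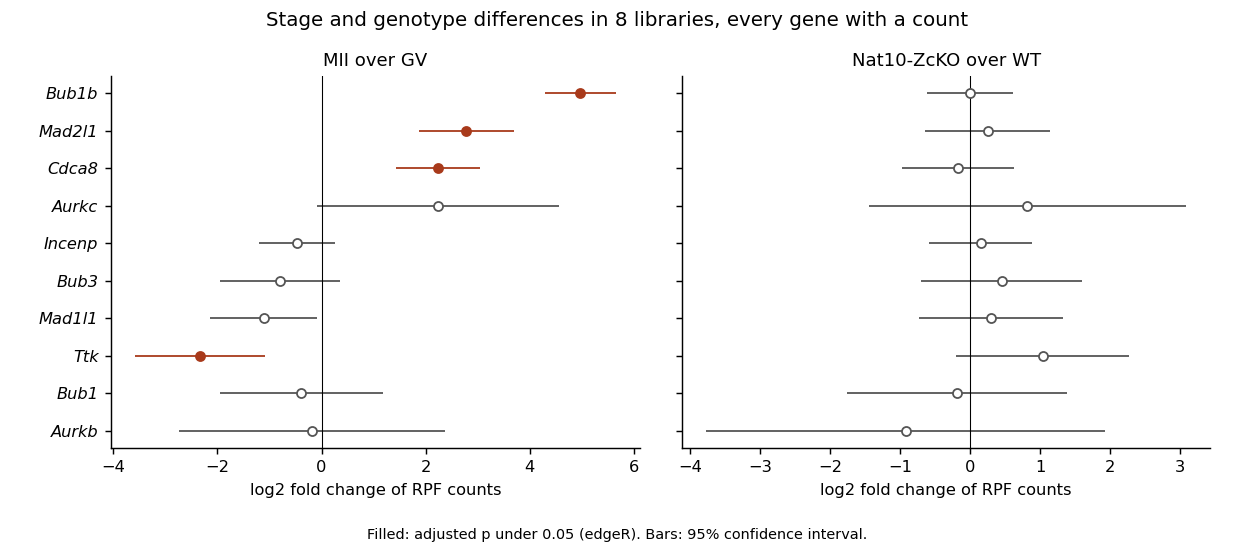
Points are log2 fold changes of RPF counts in the 8 libraries, MII over GV on the left and Nat10-ZcKO over WT on the right, fitted without the filter on low counts, with bars for the 95% confidence interval. Filled points, Bub1b, Mad2l1, Cdca8 and Ttk by stage and none by genotype, had an adjusted p under 0.05.

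Loss of Nat10 was the second axis of the design, and none of the 10 genes was called between genotypes at either stage. At GV, 3 genes could be tested in the 6 libraries. Bub1b had 165 to 281 CPM in WT and 144 to 445 CPM in Nat10-ZcKO libraries, with overlap, and a log2 fold change of 0.59 with a 95% interval of -0.81 to 2.0 (edgeR, adjusted p = 0.908). The interval was -0.61 to 2.22 for Incenp and -1.36 to 1.39 for Mad1l1. Of all 1765 genes tested 0% were called, and DESeq2 called 3. An unadjusted p under 0.05 (edgeR) was found for 93, near the share that this threshold gives without any difference. Without the GV libraries low in oocyte markers, 6 of the 10 could be tested against the 1 that remained and none was called, with 2.01% of 3879 genes called. The sign of Bub1b turned there, to -0.26.

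At MII, 4 of the 10 could be tested in the 5 libraries. WT MII replicate 2 made the intervals wide, -3.22 to 4.81 for Bub1b. Of 2097 genes 0.191% were called. Without that library Bub1b differed by -0.01 on the log2 scale, with an interval of -1.10 to 1.08, Mad2l1 by -0.06 (-1.10 to 0.99), Cdca8 by -0.11 (-1.09 to 0.87) and Incenp by -0.02 (-1.09 to 1.06), and 0.205% of 2924 genes were called. These intervals reach about 2-fold in either direction. With WT MII replicate 2 as the only WT sample, 4 of 5 genes tested were called higher in Nat10-ZcKO, and so were 47.3% of 2809 genes.

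Over both stages, in the 8 libraries with stage as a term, the genotype difference of Bub1b was -0.17 (-0.79 to 0.46), of Mad2l1 0.06 (-0.84 to 0.96), of Cdca8 -0.33 (-1.16 to 0.49), of Incenp 0.02 (-0.67 to 0.71) and of Bub3 0.31 (-0.83 to 1.45), as log2 fold changes with 95% intervals, with no call among them (edgeR, adjusted p 0.866 to 0.993). Of 2185 genes, 0.0458% were called. Without the filter none of the 10 was called, against 0.115% of 13058 genes. The stage by genotype interaction over all 11 libraries called none of 7 genes tested, against 0.802% of 3863 genes. For Bub1b it was 0.98 with an interval of -3.71 to 5.68, and 0.34 (-0.94 to 1.61) without the 3 libraries low in oocyte markers. A difference between genotypes in the size of that rise was not detectable at this depth.

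Other genes of the same machinery split in both directions, as did all genes tested. Of a list of 24 further kinetochore, checkpoint and passenger genes, 14 passed the filter on low counts in the 8 libraries. Of these, 6 were called higher at MII and 6 lower, against 33.9% and 36.3% of all 2185 genes tested. Without the filter 7 of 24 were higher and 6 lower, against 8.16% and 9.23% of 13058 genes. Of the proteins that bind the checkpoint complex, Cdc20, the activator of the anaphase-promoting complex that BUBR1 and MAD2 hold, rose by 2.36 on the log2 scale with a standard error of 0.37 (edgeR, adjusted p = 1.4e-05), from 74.8 to 419 mean CPM. Mad2l1bp, which encodes p31comet, a protein that takes MAD2 out of the checkpoint complex, rose by 1.65 (adjusted p = 0.0111). Of the NDC80 complex, the microtubule clamp of the kinetochore, Nuf2 rose by 2.51 and Ndc80 by 1.99 (adjusted p = 4.0e-05 and 5.0e-04), while Spc24, of the same 4-protein complex, fell by 2.58 (adjusted p = 3.3e-06). Dsn1, of the MIS12 complex, rose by 1.86 (adjusted p = 5.3e-04), and Pmf1, of that complex too, fell by 1.79 (adjusted p = 0.0032). Cenpe, the kinetochore motor, rose by 1.46 (adjusted p = 6.3e-05).

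Footprints of the survivin gene went against those of the borealin gene. Birc5 had 343 to 469 CPM in the 4 GV libraries and 29.7 to 68.2 CPM in the 4 MII libraries, and fell by 3.42 on the log2 scale with a standard error of 0.35 (edgeR, adjusted p = 6.2e-08), from 416 to 50 mean CPM. Survivin forms one 3-helix bundle with borealin and INCENP. Footprints rose for Cdca8, fell for Birc5 and were not called for Incenp, and protein levels were not measured. Cenpf, a kinetochore protein of the outer corona, fell by 2.34 (adjusted p = 1.6e-06), and Kntc1 (ROD), which brings MAD1 and MAD2 to kinetochores, by 2.11 (adjusted p = 1.2e-04). Plk1, a mitotic kinase of kinetochores and spindle poles, fell by 1.20 (adjusted p = 0.0035), although without the filter it was not called (adjusted p = 0.0529). Aurka and Spdl1 were not called, at -0.54 and 0.63. Without the filter Sgo2a, the shugoshin that protects centromeric cohesion, was also called higher at 2.18 (adjusted p = 0.0354) and Zw10, a partner of ROD, lower at -2.59 (adjusted p = 0.0061). No gene of the 24 was called between genotypes in the fits at GV, at MII or in the 8 libraries.

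**Figure D4:**
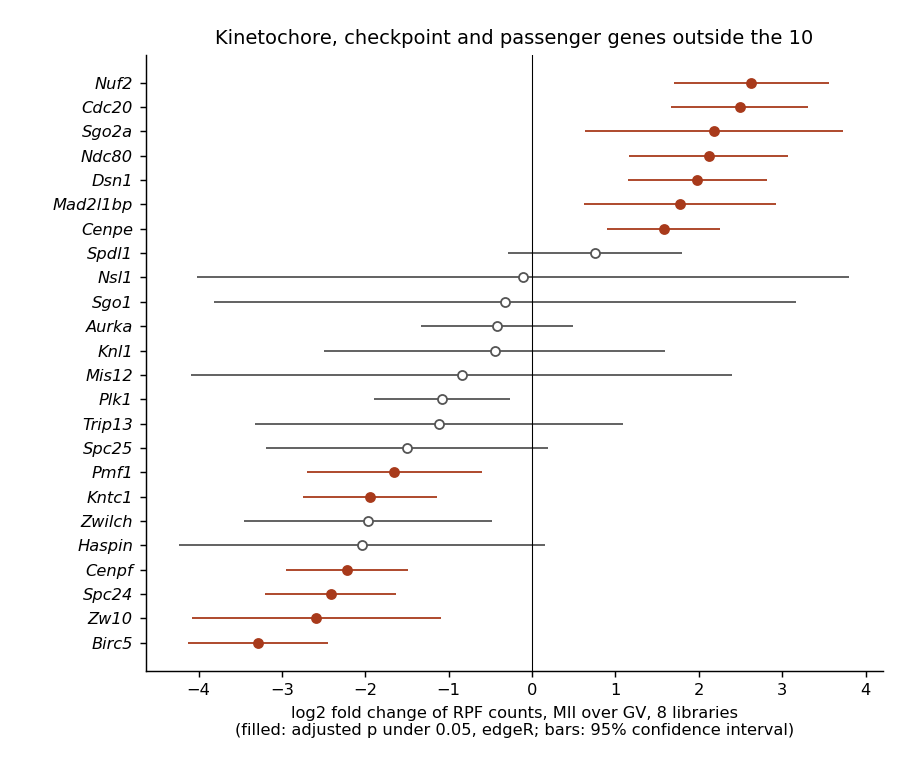
Points are log2 fold changes of RPF counts at MII over GV (x axis) in the 8 libraries for the 24 further genes (y axis), fitted without the filter on low counts, with bars for the 95% confidence interval. Filled points had an adjusted p under 0.05, 7 of them to the right of 0 (higher at MII) and 6 to the left. Of all 13058 genes with at least 1 count in the 8 libraries, 8.16% were called higher and 9.23% lower. In the fit with the filter, of 2185 genes, these shares were 33.9% and 36.3%.

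Genes whose levels ran most like those of Bub1b are given as a description. Over the 11 libraries and 2935 genes with a mean of at least 50 CPM, Pearson's r of log2(CPM + 10) with Bub1b was highest for Slc3a2 (0.982), Gle1 (0.982), Plat (0.978), Tnfaip6 (0.962) and Pacsin2 (0.961). Plat, which encodes tissue plasminogen activator and is a classic mRNA translated at oocyte maturation, went from 89.3 to 18321 mean CPM in the 8 libraries. Tnfaip6 is a gene of expanding cumulus cells and was at 0 in all 4 GV libraries and at 376 mean CPM at MII. Over the 8 libraries the 5 closest genes were others, Trim75, Mier2, E330034G19Rik, Sall4 and Rfpl4 (r of 0.994 to 0.999). All of these coefficients are over libraries of 2 stages that share the stage contrast and depth, so any gene high at MII and low at GV scores well.

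The acRIP-seq pair asked whether mRNA fragments of these genes were held by the anti-ac4C antibody in WT GV oocytes. There was 1 library a side, with 970997 counts for anti-ac4C and 116232 for anti-IgG, so the ratios have no replicate check and the intervals are exact at 95% for counting error only. The most abundant of the 10 in both libraries were Bub1b, with 1365 anti-ac4C and 100 anti-IgG counts, and Incenp, with 489 and 117. The CPM ratio of anti-ac4C over anti-IgG was 1.63 for Bub1b (1.33 to 2.02) and 0.50 for Incenp (0.408 to 0.617). Bub3 had the highest ratio, 8.68, on 145 and 2 counts (2.36 to 72.3), and Aurkb the lowest, 0.0599, on 7 and 14 counts (0.0204 to 0.158). The others were at 3.95 for Aurkc, on 33 and 1 counts (0.661 to 161), 1.68 for Mad2l1 (0.885 to 3.57), 1.26 for Mad1l1, 1.25 for Bub1, 1.03 for Ttk and 0.948 for Cdca8, and these intervals all held 1. The lower bound was above 1 for 2 of the 10, Bub1b and Bub3, as for 21.7% of 8752 genes with at least 10 counts, and the upper bound was under 1 for 2, Incenp and Aurkb, as for 17.8%. A ratio above 2 was reached by 2 of the 10, Bub3 and Aurkc, and by 43.9% of those genes. The median ratio was 1.25 over the 10 and 1.56 over those genes. The ratio depends on the library total used: fragments on no feature were 46.7% (anti-IgG) and 17.1% (anti-ac4C) of all fragments. With them in the totals every ratio was higher. It was 2.54 for Bub1b, 2.60 for Mad2l1, 1.96 for Mad1l1, 1.94 for Bub1, 1.60 for Ttk and 1.47 for Cdca8. Incenp, at 0.777, and Aurkb, at 0.0929, stayed under 1. The bounds, the genes past them and the background shares above hold for totals on genes only, and the choice of total can change which intervals hold 1.

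**Figure D5:**
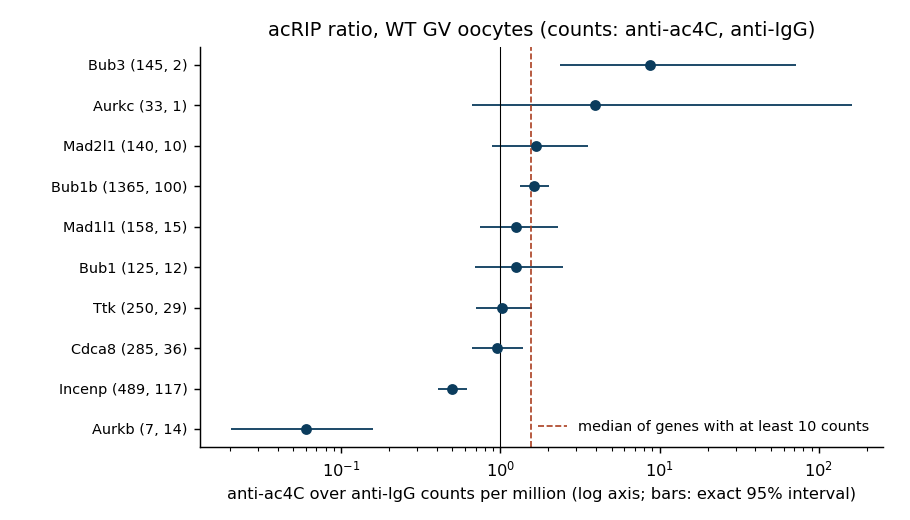
Points give the ratio of anti-ac4C to anti-IgG CPM (log x axis) for each of the 10 genes, with the counts of both libraries beside the name and bars for the exact 95% counting interval. The dashed line is the median of genes with at least 10 counts, 1.56, and Incenp and Aurkb alone have intervals wholly under 1.

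Fragments and footprints of WT GV oocytes are listed side by side for some of the genes with many counts, but they are unlike measures. Fragments were counted on genes after a pull-down, and footprints on the CDS. Neither pull-down is a library of the input mRNA, so the values do not give footprints per mRNA. Bub1b had 860 CPM of fragments in the anti-IgG and 1406 CPM in the anti-ac4C library, and 165 to 281 CPM of RPFs. Incenp had 1007 and 504 CPM of fragments and 254 to 308 CPM of RPFs. Ttk had 249.5 and 257 CPM of fragments and 52.0 to 122 CPM of RPFs. For the MII stage no fragment library was analysed here, so the 29.7-fold rise of Bub1b footprints cannot be split into more mRNA and more ribosomes per mRNA.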

How the data were processed

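Per the labels and the methods of the study, footprints of small oocyte pools were made with RNase I, 3' polyadenylated and template-switched, and acRIP fragments were pulled down from WT GV mRNA. The authors deposited whole-number counts per gene without normalization, 1 library each: RPF counts on the CDS, and fragment counts on genes for acRIP. The submitters' processing notes name cutadapt, STAR, HTSeq and mm10, without roles. Removal of rRNA and PCR duplicates and strand are not given in the sources used here. The methods state counting of uniquely mapped reads for the study's RNA-seq, and give no such statement for these libraries. The study speaks in general of biological replicates, but nothing says which libraries came from separate animals, so p-values measure the spread between these libraries.

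Counts were tested with edgeR 4.0.16 in R 4.3.3 (filterByExpr, TMM, glmQLFit, glmQLFTest, Benjamini-Hochberg over all genes tested, adjusted p under 0.05), in each genotype or stage alone, and with all 11 libraries for the interaction. DESeq2 1.42.0, scaling by library size only, no filter, all 11 libraries in one fit, libraries left out and a replicate block were the alternatives. The fits of 8 libraries were added after seeing the data. Standard errors were taken from the F statistic, as |log2 fold change| over its square root. The fits were also run on simulated counts of these library sizes, with the same make-up and spread in every library save the genes changed. That cannot show how they behave with libraries unlike the rest of their group. CPM, TPM from GENCODE M21 CDS lengths (83 genes have none), Clopper-Pearson intervals, motifs and 28-base pieces used Python 3.11.15, numpy 2.4.6, scipy 1.17.1 and pandas 2.3.3. Symbols matched 22399 of 22442 identifiers. The 5 summary rows of each acRIP table were left out of library sizes.

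The 10 genes and the lists were chosen with earlier results of these data known. Named besides the 10 are Nat10, genes of the 24 past the threshold (or else the 4 with the most counts; Aurka and Spdl1 were named afterwards, to account for all 14 that passed the filter), and the 5 most like the most abundant of the 10 over the 11 libraries. The 5 over the 8 libraries were named after their values were seen.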

Additional observations from a re-analysis of the deposited data

How the results depend on the processing

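Depth and the 3 libraries low in oocyte markers set most limits: 3 to 7 of the 10 genes passed the filter on low counts, and a level under the limit of 0 counts cannot be seen. Of 277 log2 fold changes of the 10 genes under an alternative, 229 kept direction and side of the threshold, 25 reversed, 10 lost and 13 gained a call; the causes were not tested. Scaling by library size only moved the median log2 fold change of all genes in the 8-library stage fit from -0.07 to 0.11, and Bub1b, Mad2l1 and Cdca8 stayed called.

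Genes called between genotypes at GV were 0, and 3 with DESeq2, 41 without the filter, 23 with all 11 libraries in one fit and 78 without the low-marker libraries, which leaves 1 Nat10-ZcKO library. At MII they were 4, and 15 with DESeq2, 44 by library size, 0 without the filter and 19 with all 11 libraries. For WT maturation they were 6, and 891 with DESeq2, 997 by library size, 0 without the filter and 60 with all 11 libraries, and of the 10 genes 1 was called with DESeq2 and 2 by library size. For Nat10-ZcKO maturation they were 368, and 789 with DESeq2 and 1445 without the low-marker libraries, and of the 10 genes 0 were called with all 11 libraries. The interaction called 31, and 49 with DESeq2, 48 by library size, 10 without the filter and 0 without the 3 low-marker libraries. Genotype in 8 libraries called 1, and 15 without the filter.

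The sign of the genotype effect at GV turned for Bub1b to -0.013 without the filter and to -0.26 without the low-marker libraries, and for Mad1l1 to -0.032 by library size, -0.36 without the filter and -0.30 with all 11 libraries. Bub3 turned to 0.061 in Nat10-ZcKO maturation without the filter. The interaction turned for Mad1l1 to -0.044 without the 3 low-marker libraries, for Mad2l1 to -0.0042 with DESeq2, -0.41 by library size and -0.43 without those libraries, and for Incenp to -0.42 by library size and -0.075 without those libraries.

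Deviations of same-numbered libraries from their group means had correlations of 0.01 to 0.08 at GV and 0.09 and 0.15 at MII. They were -0.04 and -0.01 in WT, and -0.02 to 0.10 in Nat10-ZcKO. Libraries of different numbers were not compared, so these values cannot decide whether a shared number marks a shared animal or batch. With the replicate block, genes called were 0 at GV, 0 at MII, 0 for WT maturation, 194 for Nat10-ZcKO maturation and 8 for the interaction, 1 of the 10 was called, Bub1b, in Nat10-ZcKO maturation, and Mad1l1 at GV turned to -0.13.

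Leaving out 1 library at a time, a lone library being assumed to vary like the rest, gave 0 to 380 genes called at GV, 0 to 1451 at MII, 37 to 1902 for WT maturation, 0 to 780 for Nat10-ZcKO maturation and 1137 to 1787 for stage in 8 libraries. Of the 10 genes, it gave 0 at GV, 0 to 4 at MII, 0 to 5 for WT, 0 to 2 for Nat10-ZcKO maturation and 3 to 5 in the 8 libraries. In the 8 libraries, 3 of the 10 were called higher at MII in each such fit and 0 to 2 lower, with 5 to 7 tested. A gene not called lower with all 8 could thus be called with 1 left out. Log2 fold changes ran from -0.16 to 0.73 (Bub1b) and -0.47 to 0.28 (Mad1l1) at GV, from -0.0091 to 5.89 (Bub1b), -0.11 to 8.54 (Cdca8), -0.016 to 7.86 (Incenp) and -0.056 to 8.01 (Mad2l1) at MII, and from -1.62 to 4.85 (Bub1b) and -6.68 to 2.06 (Cdca8) for WT maturation.

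The median acRIP ratio of the 10 was 1.25, and 1.40 with TMM-scaled totals and 1.95 with fragments on no feature in the totals. The summed share without Bub1b was 0.0683% in WT GV and 0.0977% in Nat10-ZcKO MII. Per 100 counts on oocyte markers, the 10 genes had 1.26 counts in WT GV, 193 in Nat10-ZcKO GV, 178 in WT MII and 52.9 in Nat10-ZcKO MII. Nat10-ZcKO GV replicate 1 (567, with replicates 2 and 3 at 10.6 and 0.738) and WT MII replicate 2 (300, with replicate 1 at 56.1) set those means, on few marker counts.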
